A study of Mus musculus with 4 samples.

Results

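The 7 genes described here handle zinc in mouse embryonic fibroblasts (MEFs): the metallothionein genes Mt1 and Mt2, the zinc-sensing transcription factor gene Mtf1, the zinc exporter gene Slc30a1, and the zinc importer genes Slc39a6, Slc39a10 and Slc39a14. They were chosen by name, with earlier results of these libraries known, in particular that Mt1 and Mt2 had a larger ratio with TNF in Mll1-/- cells than in wild-type cells. That contrast is therefore given as a description. Of 16612 named genes in the deposited table, all 7 had an entry, and all 7 were among the 11115 named genes that reached 1 RPKM in some library. RPKM is the number of reads scaled by transcript length and by the total of the library.

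The study compared 4 groups of MEFs grown in serum-containing medium: cells labelled Mll1-/- given tumour necrosis factor alpha (TNF), cells labelled Mll1-/- given control solution, wild-type (Mll1+/+) cells given TNF, and wild-type cells given control solution. TNF was given at 10 ng/ml for 4 hr, a dose for which the treatment protocol has another unit than the design text. Each group is 1 library, made from the mixed cells of 3 separate treatments, so no spread between replicates can be measured and no p-value is given. The labels do not say how the Mll1 allele was made, or whether either genotype is 1 clone, and the genotypes may differ in more than Mll1.

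Metallothioneins are small cysteine-rich proteins that bind zinc and copper and release them to other proteins. Mtf1 binds DNA when cytosolic zinc is high, through short promoter sequences called metal response elements, and switches on Mt1, Mt2 and Slc30a1. Slc30a (ZnT) proteins lower cytosolic zinc by export or by loading vesicles, and Slc39a (ZIP) proteins raise it by import or by release from organelles. In inflammation, metallothionein genes and Slc39a14 are known acute-phase genes of the liver, where interleukin-6 and glucocorticoids induce them.

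A promoter window of each metallothionein gene is shown because Mtf1 acts through promoter sequences and because these 2 genes differ between the genotypes below. Each is RefSeq sequence on GRCm38.p6, plus strand, from 250 bases before the annotated start to 30 bases after it, and capitals mark the metal response element core. The core was searched as TGCACNC and TGCGCNC on both strands. The Mt1 sequence is chr8:94178839-94179118 and the Mt2 sequence is chr8:94172368-94172647.
Mt1: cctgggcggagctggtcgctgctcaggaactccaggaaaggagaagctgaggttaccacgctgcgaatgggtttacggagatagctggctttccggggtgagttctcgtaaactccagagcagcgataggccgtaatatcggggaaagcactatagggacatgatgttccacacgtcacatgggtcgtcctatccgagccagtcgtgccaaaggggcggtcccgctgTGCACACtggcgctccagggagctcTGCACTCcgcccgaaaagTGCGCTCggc
Mt2: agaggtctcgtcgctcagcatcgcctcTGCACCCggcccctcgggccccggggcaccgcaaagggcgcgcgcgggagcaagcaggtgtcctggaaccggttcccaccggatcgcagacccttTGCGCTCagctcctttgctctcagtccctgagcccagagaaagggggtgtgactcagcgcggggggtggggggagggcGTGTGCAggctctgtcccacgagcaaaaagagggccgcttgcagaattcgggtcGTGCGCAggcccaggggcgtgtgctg
In the 300-base windows of the RefSeq table, Mt2 held 4 core matches and Mt1 held 3. Slc30a1 held 2, Mtf1 held 0 and both listed Slc39a10 promoters held 0. At least 1 core of either form was found in 25.7% of the 32851 promoters of the same length, and 3 or more in 1.97%. The letters GGG and CC with 5 bases of any kind between them, which many NF-kB sites hold, were searched on both strands and found at 2 overlapping positions in Mt1, at 2 in Slc30a1, at 1 in Mtf1 and at 0 in Mt2, and in 50.8% of all promoters. These are matches of letters in a window around 1 annotated start, and more than 1 start is known for some genes. Some cores lie after that start, in Mt1 at bases 3 to 9 and 21 to 27, and in Mt2 at bases 5 to 11. The windows, and the shorter stretches printed above, may therefore miss cores further along. The counts of Mt1 and Mt2 depend on the start used, so they are not compared. Promoters were matched for 5 of the 7 genes.

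Depth was 19306506 reads in the Mll1-/- library with TNF, 20081869 in the Mll1-/- control, 27977248 in wild type with TNF and 27728647 in the wild-type control, recovered from the RPKM steps. The Mll1 transcript itself, listed as Kmt2a, was at 1.66 and 2.02 RPKM in the Mll1-/- libraries with and without TNF, against 2.11 and 1.85 RPKM in the wild-type libraries with and without TNF. A value over the whole transcript cannot show whether a deleted part is missing, so it does not check the label. Of 9 fibroblast markers 7 had an entry, with a summed level of 2625 and 2782 RPKM in the Mll1-/- libraries and 2356 and 2574 RPKM in wild type. Vim gave most of it. Of these 7 markers, 5 were higher in Mll1-/- cells by the size rule given below, in both treatments. Of all genes and entries compared, 6.71% were higher with TNF and 7.11% without. Among the 5 was the collagen gene Col1a2, at 170.1 and 198.5 RPKM in Mll1-/- cells with and without TNF. In wild type it stood at 25.9 and 32.2 RPKM with and without TNF. The matrix proteoglycan gene Dcn was listed at 0 in both wild-type libraries. Macrophage, epithelial and endothelial markers summed to at most 1.04 RPKM per list in any library. The 4 neural markers with an entry summed to 91.8 and 103.7 RPKM in the Mll1-/- libraries, against 14.1 and 14.4 RPKM in wild type. Nes and Tubb3 gave most of that sum. Map2 was also higher in Mll1-/- cells, while Elavl3 stood at 0.036 RPKM or less in every library. The part of these cell differences in the results below was not tested.

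Mt2 separated the genotypes most. It stood at 39.0 RPKM in Mll1-/- cells with TNF (419 reads) and 14.6 RPKM in Mll1-/- control cells (163 reads), against 2.06 RPKM in wild-type cells with TNF (32 reads) and 2.85 RPKM in wild-type control cells (44 reads). Both Mll1-/- libraries lay above both wild-type libraries. The share of all genes with the genotypes apart in this way was not counted, so nothing is read from such an order in any gene. In such bulk RNA, more cells that express a gene and more RNA per cell cannot be told apart. Without TNF the ratio of Mll1-/- to wild type was 5.12 (95% counting interval 3.65 to 7.31), and with TNF it was 18.97 (13.2 to 28.1). Such intervals come from recovered reads of 1 library per group and hold the error of counting alone. Reads carry no molecular identifiers, so copies of 1 molecule are counted apart and the intervals may be too narrow even for that.

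Mt1 was the more abundant metallothionein in every library and had another order. It stood at 125.7 RPKM in Mll1-/- cells with TNF (1415 reads) and 52.4 RPKM in Mll1-/- control cells (614 reads), against 75.3 RPKM in wild-type cells with TNF (1229 reads) and 86.4 RPKM in wild-type control cells (1397 reads). The Mll1-/- library with TNF was the highest and the Mll1-/- control library the lowest, with both wild-type libraries between them. Without TNF the Mll1-/- level was 0.607 times that of wild type (0.551 to 0.668), and with TNF it was 1.67 times (1.54 to 1.80). In the Mll1-/- library with TNF, Mt1 exceeded 94.6% of the named genes compared, while Mt2 in wild type with TNF exceeded 14.4%.

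The share of Mt2 in the metallothionein message therefore differed between the genotypes in both treatments. The ratio of Mt2 to Mt1, per length, was 0.310 (0.278 to 0.347) in Mll1-/- cells with TNF and 0.278 (0.233 to 0.331) in Mll1-/- control cells. It was 0.0273 (0.0186 to 0.0388) in wild-type cells with TNF and 0.0330 (0.0239 to 0.0446) in wild-type control cells. The Mll1-/- ratio was 8.43 times the wild-type ratio without TNF (5.96 to 11.9) and 11.4 times with TNF (7.88 to 16.4). TNF changed the ratio by less than counting error in either genotype, 1.11 times (0.909 to 1.37) in Mll1-/- cells and 0.827 times (0.521 to 1.31) in wild type. The transcripts are of similar length, 556 bases for Mt2 and 583 for Mt1, and Mt1 and Mt2 transcripts in GENCODE M21 share no identical run longer than 20 bases. The sum of both genes stood at 164.7 and 67.0 RPKM in the Mll1-/- libraries with and without TNF, and at 77.4 and 89.3 RPKM in the wild-type libraries with and without TNF.

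**Figure D1:**
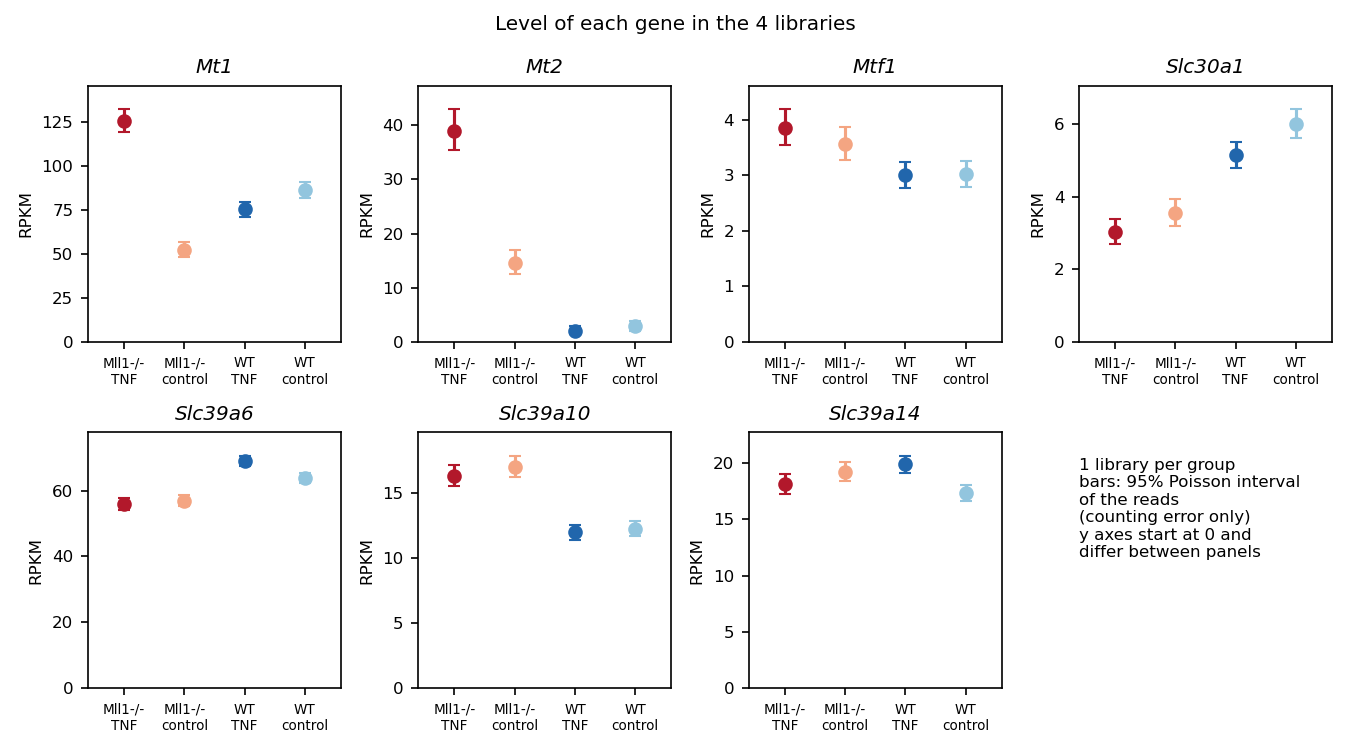
Level of each of the 7 genes, in RPKM on a linear axis from 0, in Mll1-/- cells with TNF, Mll1-/- control, wild type with TNF and wild-type control (1 library each). Points are deposited values and bars are 95% Poisson intervals of the reads. Mt2 is at 39.0 and 14.6 RPKM in Mll1-/- cells and at 2.06 and 2.85 RPKM in wild type, while Slc39a14 stays between 17.3 and 19.9 RPKM.

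With TNF, both metallothionein genes were higher in Mll1-/- cells and neither was higher in wild-type cells. In Mll1-/- cells the TNF ratio was 2.40 (2.18 to 2.64) for Mt1 and 2.67 (2.23 to 3.22) for Mt2. In wild-type cells it was 0.872 for Mt1 (0.807 to 0.942) and 0.721 for Mt2, whose interval of 0.442 to 1.16 includes 1. In RPKM, Mt1 gained 73.3 and Mt2 gained 24.4 in Mll1-/- cells, against changes of -11.1 and -0.797 in wild type. The difference in response, the log2 TNF ratio in Mll1-/- minus that in wild type, was 1.45 for Mt1 and 1.78 for Mt2 on the log2(RPKM + 0.5) scale used throughout. From reads it was 1.46 (1.28 to 1.63) for Mt1 and 1.89 (1.18 to 2.60) for Mt2. The TNF ratio in Mll1-/- cells and the genotype ratio without TNF share the Mll1-/- control library, in which Mt1 was lowest.

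By a size rule of a log2 ratio of 1 or more, which is 2-fold on that scale, 2 of the 7 genes were higher with TNF in Mll1-/- cells and 0 were lower. Of 14386 genes and unnamed entries compared, 0.688% were higher by this rule and 0.160% lower. In wild-type cells 0 of the 7 passed in either direction, where 0.521% of all were higher and 0.0556% lower. For the difference in response 2 of 7 were higher and 0 lower, against a background of 0.758% higher and 0.424% lower. Since the genes were chosen with that contrast known, nothing is read from these counts. Of the 7 genes, 1 (Mt2) was higher in Mll1-/- than in wild type without TNF and 0 were lower, where 7.11% of all were higher and 7.99% lower. With TNF again 1 (Mt2) was higher and 0 lower, where 6.71% of all were higher and 4.50% lower. The median log2 ratio of the 7 genes was -0.03 for TNF in Mll1-/- cells and -0.03 for TNF in wild type, beside 0.02 and -0.02 over all compared. For Mll1-/- against wild type it was 0.32 with TNF and 0.15 without, beside -0.05 and -0.07 over all.

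**Figure D2:**
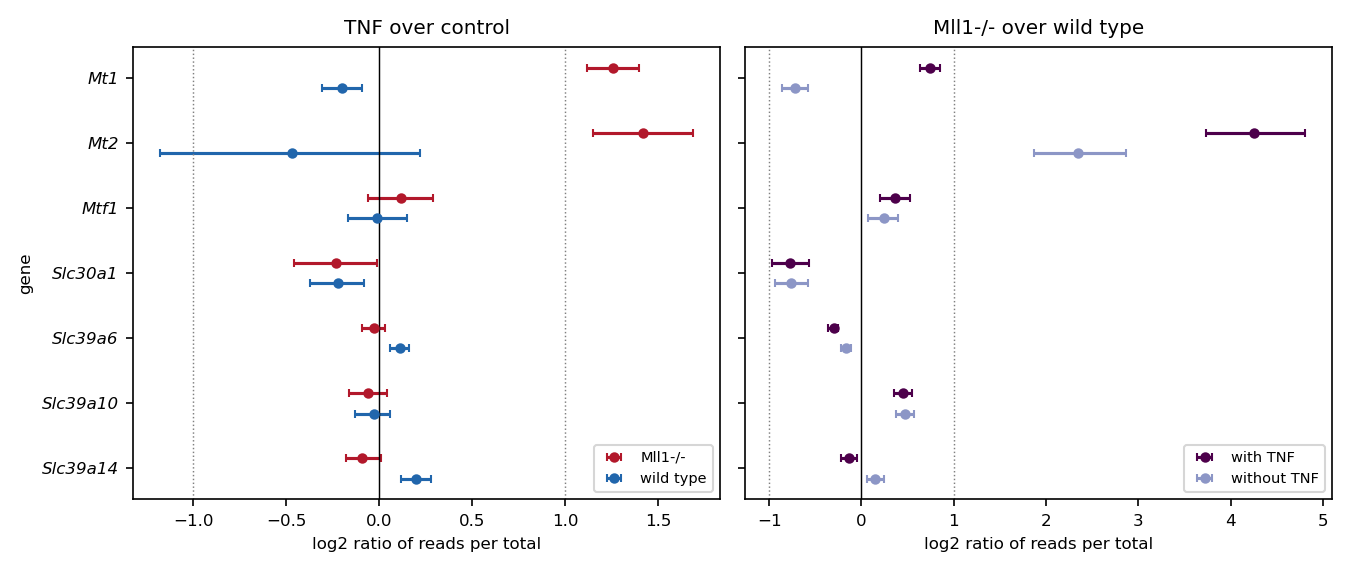
Log2 ratio of reads per library total for each gene, for TNF over control in each genotype and for Mll1-/- over wild type with and without TNF. Bars are 95% counting intervals and dotted lines mark the size rule of 1. Mt1 and Mt2 have log2 TNF ratios of 1.26 and 1.42 in Mll1-/- cells, and Mt2 has the genotype ratios furthest from 0, 4.25 with TNF and 2.35 without.

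Short transcripts as a class had higher ratios with TNF in Mll1-/- cells, so both genes were set beside other entries of their length. Compared entries were split by length into 10 groups of near-equal size. The median log2 TNF ratio was 0.31 at the short end and -0.20 at the long end in Mll1-/- cells, and -0.01 and 0.03 at these ends in wild type. The median genotype ratio was -0.17 at the short end and 0.01 at the long end with TNF, and -0.53 and 0.25 at these ends without. Within 10% of the length of Mt1 (525 to 641 bases) lay 501 other entries, of which 128 were named genes. Their median difference in response was 0.24, with a middle 95% of -0.62 to 0.90, and 1 of them, Mt2, was at or above Mt1. Within 10% of the length of Mt2 (501 to 611 bases) lay 482 other entries with a median of 0.25 (middle 95% -0.63 to 0.88), and 0 were at or above Mt2.

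The named genes of that length gave a higher bar than the entries without a symbol. The 128 named genes had a median difference in response of 0.50 (middle 95% -0.44 to 0.98), and the 373 entries without a symbol, 364 of them predicted transcripts, had a median of 0.16. Against named genes of like length the difference was 0.95 for Mt1 and 1.30 for Mt2. The TNF ratio in Mll1-/- cells was above the median of such genes by 0.80 for Mt1 and by 0.93 for Mt2. With the length trend of all entries removed, the TNF ratio in Mll1-/- cells was 1.02 for Mt1 and 1.14 for Mt2, both past the size rule. With the trend of named genes removed, a setting chosen after the data were seen, Mt1 (0.82) and Mt2 (0.95) were not, and 0 of the 7 genes were.

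**Figure D3:**
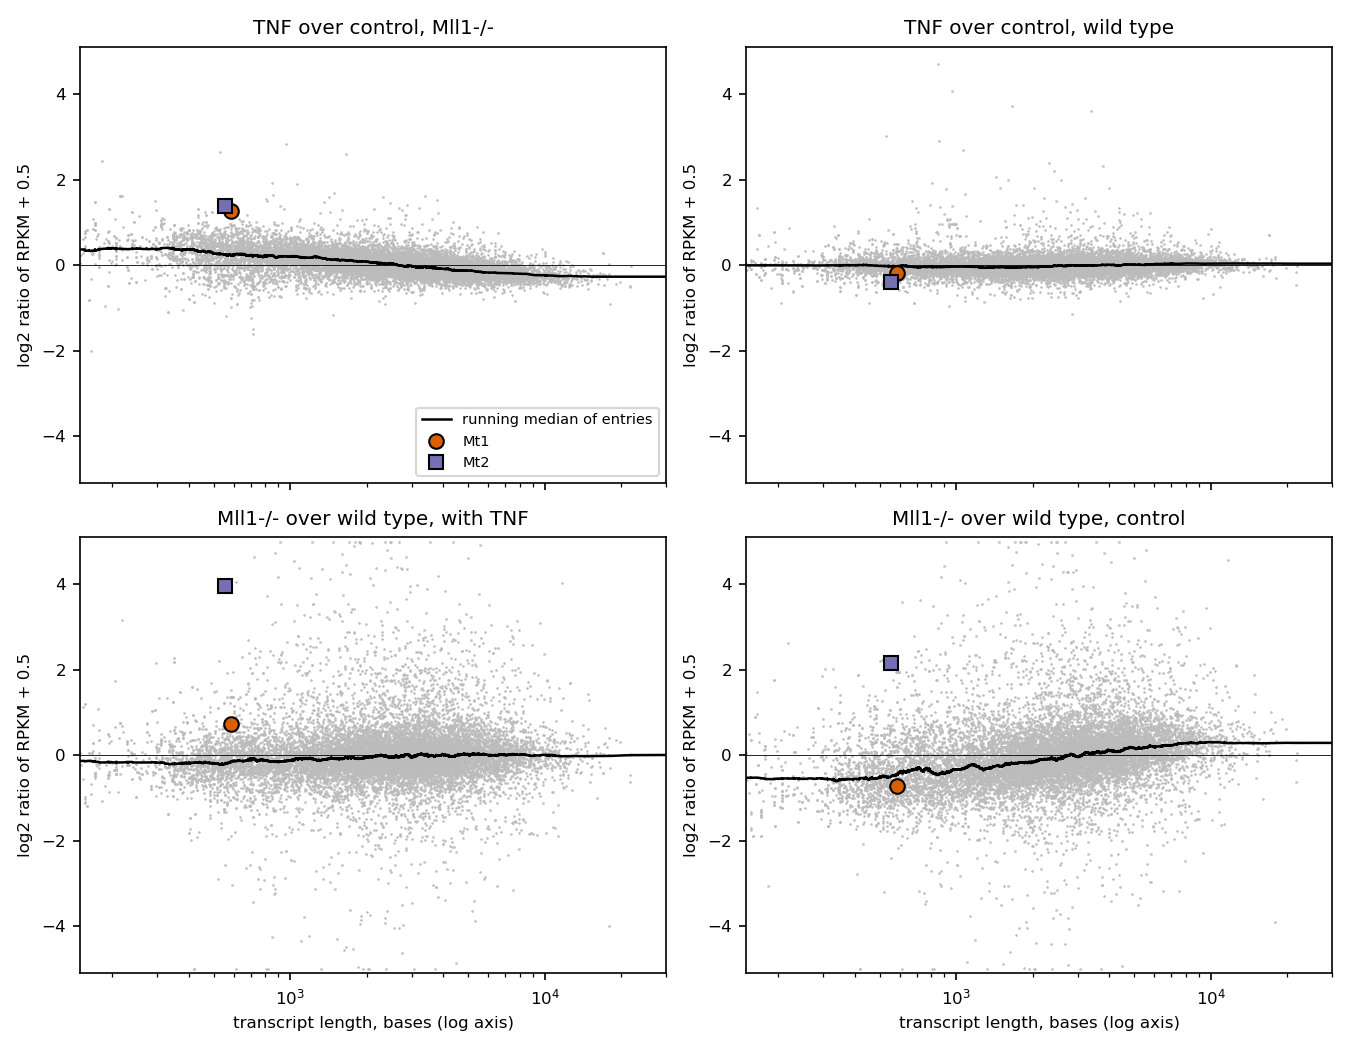
Log2 ratio of RPKM + 0.5 against transcript length in bases (log axis) for 4 comparisons. Grey points are compared genes and entries, held at 5 where larger in size, and the line is their running median. Mt1 and Mt2 stand above the line for TNF in Mll1-/- cells (1.25 and 1.39), and Mt1 stands near it for Mll1-/- over wild type without TNF (-0.72).

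The genotype ratios of both genes were also set beside genes of like length. Without TNF the log2 ratio of Mt1, -0.72, was close to the median of named genes of its length, -0.76, and 68 of the 128 were at or below it. With the trend of named genes removed, that ratio was 0.01, so its direction is not kept. With TNF the log2 ratio of Mt1, 0.73, was at or below that of 9 of the 128 named genes, whose median was -0.21. Mt2, at 2.17 without TNF and 3.95 with TNF, was above all 119 named genes of its length in both, and their medians were -0.78 without TNF and -0.25 with TNF.

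Among named genes of this length, those nearest to the metallothioneins in their difference in response were H3c1 (1.08), a histone H3 gene whose copies can share reads, Gchfr (1.05), the feedback regulator of GTP cyclohydrolase, and Dbi (0.98), which binds acyl-CoA. Gchfr stood at 84.2 and 46.1 RPKM in the Mll1-/- libraries with and without TNF, against 43.7 and 49.8 RPKM in wild type with and without TNF. Dbi stood at 152.7 and 81.3 RPKM in the Mll1-/- libraries with and without TNF, against 159.2 and 167.7 RPKM in wild type. At the other end were 2810429I04Rik (-0.98), the glutathione transferase gene Mgst2 (-0.88), Gm16381 (-0.73) and Gm14393 (-0.63).

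**Figure D4:**
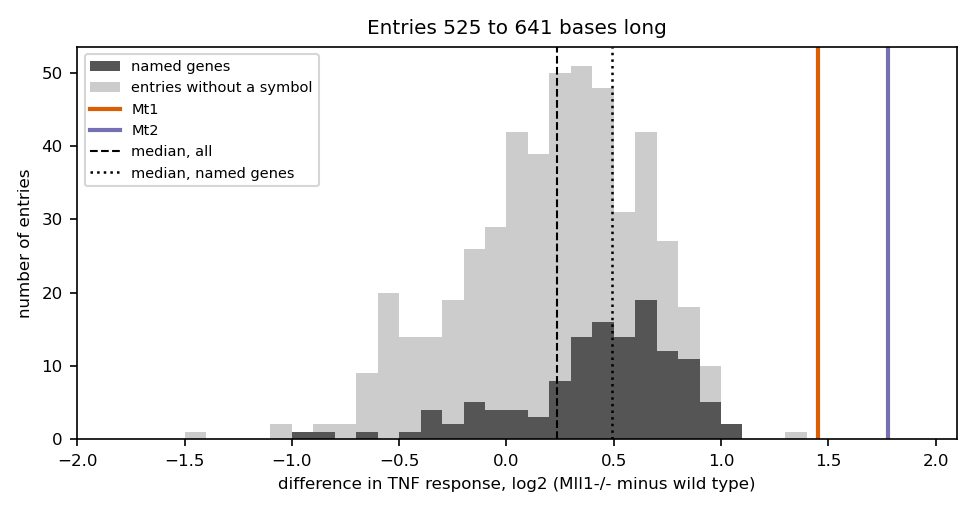
Number of entries of 525 to 641 bases by their difference in TNF response (log2, Mll1-/- minus wild type), with named genes dark and entries without a symbol light. Mt1 (1.45) and Mt2 (1.78) lie to the right of both medians, and the median of the named genes lies to the right of that of all entries.

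Mtf1, the zinc-sensing activator of both metallothionein genes, varied little. It stood at 3.86 RPKM in Mll1-/- cells with TNF (568 reads) and 3.56 RPKM in Mll1-/- control cells (545 reads), against 2.998 RPKM in wild-type cells with TNF (640 reads) and 3.02 RPKM in wild-type control cells (639 reads). The Mll1-/- libraries were the higher ones, and within each genotype the TNF and control libraries did not differ beyond counting error. The TNF ratio was 1.08 in Mll1-/- cells (0.962 to 1.22) and 0.993 in wild type (0.888 to 1.11). The genotype ratio was 1.29 with TNF (1.15 to 1.44) and 1.18 without (1.05 to 1.32), both inside the middle 95% of all genes. Without TNF its log2 value of 0.20 became -0.07 with the length trend removed, so only the direction with TNF held over all the settings tried.

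Slc30a1, the plasma membrane exporter that Mtf1 induces, was lower in Mll1-/- cells in both treatments. It stood at 3.02 RPKM in Mll1-/- cells with TNF (305 reads) and 3.55 RPKM in Mll1-/- control cells (373 reads), against 5.15 RPKM in wild-type cells with TNF (753 reads) and 6.01 RPKM in wild-type control cells (871 reads). Both Mll1-/- libraries lay below both wild-type libraries. The Mll1-/- level was 0.587 times that of wild type with TNF (0.512 to 0.671) and 0.591 times without (0.522 to 0.668). With TNF it was 0.850 times the control in Mll1-/- cells (0.729 to 0.992) and 0.857 times in wild type (0.776 to 0.946), so the difference in response was near 0 (log2 -0.01 from reads, -0.27 to 0.25). The log2 genotype ratio was -0.68 in both treatments, inside the middle 95% of all genes, and kept its direction under every setting tried. Of the known Mtf1 targets among the members, Mt2 was above wild type and Slc30a1 below it in both treatments. Before any length correction, Mt1 was below wild type without TNF and above it with TNF. The part of Mtf1 in these values was not tested.

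Slc39a10, an importer whose transcript falls when zinc and Mtf1 activity are high in mouse cells, was higher in Mll1-/- cells in both treatments. It stood at 16.4 RPKM in Mll1-/- cells with TNF (1581 reads) and 17.1 RPKM in Mll1-/- control cells (1715 reads), against 12.0 RPKM in wild-type cells with TNF (1680 reads) and 12.3 RPKM in wild-type control cells (1704 reads). Both Mll1-/- libraries lay above both wild-type libraries, and within a genotype the TNF and control libraries did not differ beyond counting error. The genotype ratio was 1.36 with TNF (1.27 to 1.46) and 1.39 without (1.30 to 1.49), and its direction held under every setting tried. On the log2 scale it was 0.43 with TNF and 0.46 without, both inside the middle 95% of all genes. With the length trend removed, the value without TNF was 0.28.

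Slc39a6, an importer that forms a complex with Slc39a10, was the most abundant transporter of the 7. It stood at 55.9 RPKM in Mll1-/- cells with TNF (4215 reads) and 56.95 RPKM in Mll1-/- control cells (4466 reads), against 69.0 RPKM in wild-type cells with TNF (7538 reads) and 63.9 RPKM in wild-type control cells (6923 reads). Both Mll1-/- libraries lay below both wild-type libraries, by ratios of 0.810 with TNF (0.780 to 0.842) and 0.891 without (0.858 to 0.925). Both ratios were inside the middle 95% of all genes. The log2 value without TNF, -0.17, became 0.13 once the scaling left out the 20 genes of highest RPKM. TNF gave a ratio of 0.982 in Mll1-/- cells (0.941 to 1.02) and 1.08 in wild type (1.04 to 1.12).

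Slc39a14, an importer of zinc, iron and manganese, had the narrowest range of the 7. It stood at 18.1 RPKM in Mll1-/- cells with TNF (1722 reads) and 19.2 RPKM in Mll1-/- control cells (1901 reads), against 19.9 RPKM in wild-type cells with TNF (2738 reads) and 17.3 RPKM in wild-type control cells (2365 reads). The genotypes overlapped, and no library differed from the next in order beyond counting error. The TNF ratio was 0.942 in Mll1-/- cells (0.882 to 1.01) and 1.15 in wild type (1.09 to 1.21). The difference in response was -0.28 (-0.41 to -0.16 from reads), inside the middle 95% of all genes, which ran from -0.58 to 0.77.

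No compared member of either transporter family passed the size rule in any of the 5 comparisons. Over all compared, the share past the rule ran from 0.0556% to 7.99% per direction and comparison, so nothing is read from this count. Of 10 ZnT genes 9 had an entry and 6 were compared, and of 14 ZIP genes 13 had an entry and 9 were compared. The median log2 TNF ratio of the 6 ZnT genes was 0.01 in Mll1-/- cells and 0.03 in wild type, and that of the 9 ZIP genes was -0.03 in both, beside 0.02 and -0.02 over all compared. For Mll1-/- against wild type the ZnT median was 0.11 with TNF and 0.14 without, and the ZIP median was 0.11 with TNF and 0.15 without.

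Among the ZnT genes Slc30a4, which loads zinc into endosomes and milk vesicles, was the most abundant at 168.2 and 187.2 RPKM in the Mll1-/- libraries with and without TNF, against 140.9 and 138.6 RPKM in wild type with and without TNF. Slc30a1 had the lowest genotype ratios of the 6. Slc30a6, a partner of Slc30a5 in the early secretory pathway, had a log2 genotype ratio of 0.36 with TNF and 0.31 without, and the Golgi transporter gene Slc30a7 had 0.31 with TNF and 0.33 without. The mitochondrial zinc transporter gene Slc30a9 stood at -0.28 with TNF and -0.19 without.

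Among the 9 ZIP genes the log2 TNF ratio lay between -0.20 and 0.17 in Mll1-/- cells and between -0.34 and 0.24 in wild type, against -0.20 to 0.09 in both genotypes for the 6 ZnT genes. The difference in response ran from -0.28 to 0.50 for ZIP genes and from -0.18 to 0.05 for ZnT genes. Slc39a13, which connective tissue needs, stood at 19.96 and 19.5 RPKM in the Mll1-/- libraries with and without TNF, against 13.7 and 16.3 RPKM in wild type with and without TNF. Slc39a11 was the lowest against wild type, at 4.72 and 5.49 RPKM in the Mll1-/- libraries with and without TNF, against 7.76 and 7.87 RPKM in wild type with and without TNF (log2 -0.66 and -0.48). Slc39a1, a widely expressed plasma membrane importer, had log2 genotype ratios of 0.24 with TNF and 0.48 without. Slc39a3 had the highest difference in response of the 9, 0.50. Slc39a8, an importer induced through NF-kB in human cells, had 1 and 5 reads in the Mll1-/- libraries with and without TNF and 3 and 2 reads in wild type, too few for a ratio. Slc39a4, the intestinal zinc importer gene, was under 1 RPKM in every library, with 29 and 14 reads in the Mll1-/- libraries with and without TNF and 12 and 2 reads in wild type. Mt3, the brain metallothionein gene, had 1 read in the Mll1-/- library with TNF and 0 in each of the others, which allows up to 3 reads in each.

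**Figure D5:**
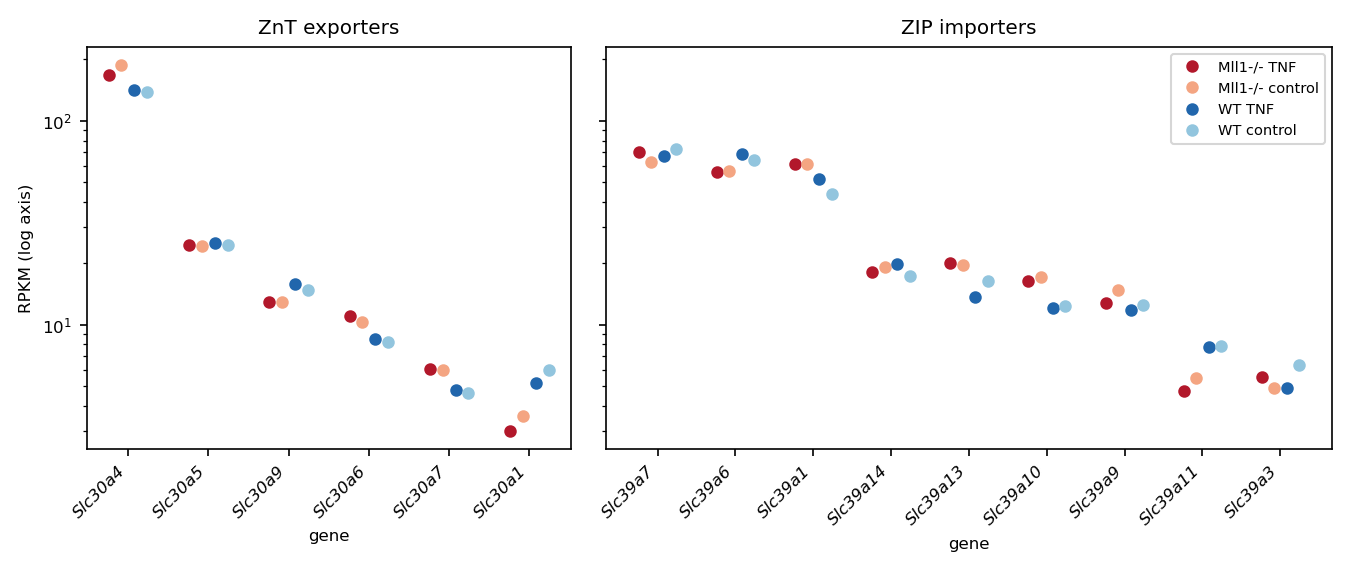
RPKM (log axis) of the 6 compared ZnT genes and the 9 compared ZIP genes in Mll1-/- cells with TNF, Mll1-/- control, wild type with TNF and wild-type control, 1 library each. Within a gene the 4 points lie close together, and Slc30a1 is lower in the Mll1-/- libraries (3.02 and 3.55 RPKM) than in wild type (5.15 and 6.01 RPKM).

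Of 6 other reported targets of Mtf1, 5 were compared, and 0 passed the size rule in any comparison. Over all compared the share past it ran from 0.0556% to 7.99% per direction and comparison, so nothing is read from that count. The median log2 TNF ratio of these 5 genes was 0.30 in Mll1-/- cells and -0.13 in wild type. The selenoprotein gene Selenoh (697 bases) had the highest, 0.68 in Mll1-/- cells and -0.13 in wild type, or 0.46 and -0.09 with the length trend removed. Selenow (722 bases) followed with 0.48 and -0.02, or 0.26 and 0.03 with the trend removed. Gclc, the catalytic subunit gene of glutathione synthesis, was at -0.17 in Mll1-/- cells and -0.43 in wild type, and the LIM domain protein gene Csrp1 at 0.06 and -0.07. The stress-induced gene Ndrg1 had log2 genotype ratios of -0.17 with TNF and -0.71 without.

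Of 8 metal and oxidant stress genes, 0 had a TNF ratio past the size rule (median 0.16 in Mll1-/- cells and -0.05 in wild type). Of all compared, 0.688% were higher and 0.160% lower with TNF in Mll1-/- cells, and 0.521% and 0.0556% in wild type. The heme oxygenase gene Hmox1, which cadmium induces, stood at 132.7 and 113.4 RPKM in the Mll1-/- libraries with and without TNF, against 98.6 and 109.7 RPKM in wild type. Against wild type, 3 were higher with TNF and 2 without, and 0 were lower in either, where 6.71% of all compared were higher with TNF and 7.11% without. The quinone reductase gene Nqo1 stood at 131.9 and 120.1 RPKM in the Mll1-/- libraries with and without TNF, against 23.4 and 24.0 RPKM in wild type. The heat shock protein gene Hspa1b had log2 genotype ratios of 1.65 with TNF and 1.57 without, and its near-identical copy Hspa1a had 1.30 with TNF and 0.97 without, so reads may be split between them. In wild type with and without TNF, Hspa1b had 35 and 30 reads and Hspa1a had 31 and 32. Each was under 1 RPKM there, so both were compared only because they reached 1 RPKM in Mll1-/- cells. Slc7a11 and Srxn1 were at the low end, at -0.07 and -0.33 with TNF and at -0.40 and -0.45 without.

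Of 13 genes of interleukin-6 and glucocorticoid signalling, 2 were higher with TNF in Mll1-/- cells and 2 in wild type, and 0 were lower in either, where 0.688% of all compared were higher in Mll1-/- cells and 0.521% in wild type. In Mll1-/- cells these were Lif (log2 1.22) and Il6 (1.03, or 0.85 with the length trend removed), and in wild type Il6 (1.67) and Cebpd (1.09). Lif was just under the rule in wild type (0.98), as was Cebpd in Mll1-/- cells (0.85), and the differences in response of Lif (0.24), Cebpd (-0.24) and Il6 (-0.64) did not pass it. The glucocorticoid target genes Tsc22d3 (0.12 in Mll1-/- cells and 0.10 in wild type) and Fkbp5 (-0.09 and -0.04) stayed within the middle 95% of all genes. So did Per1 (-0.24 and 0.11) and Sgk1 (0.29 and 0.13) of the same list, but Dusp1 did not. The glucocorticoid receptor gene Nr3c1 was at -0.44 in Mll1-/- cells and 0.07 in wild type, and the phosphatase gene Dusp1 at 0.34 and -0.65. In wild type the middle 95% ran from -0.37 to 0.45. The difference in response of Dusp1 was 0.98 (0.85 with the length trend removed), the highest of the 13 and above the middle 95% of -0.58 to 0.77. Against wild type, Cebpd, an acute-phase transcription factor gene, was at 1.37 with TNF and 1.61 without, and the receptor gene Il6ra at 0.81 with TNF and 1.17 without.

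Of 10 compared copper genes, 1 was higher with TNF in Mll1-/- cells and 0 in wild type (0.688% and 0.521% of all compared). This was the short Cox17 (436 bases), a copper chaperone gene, at 1.13 and 0.06, or 0.82 and 0.06 with the length trend removed. Without TNF 3 were lower than in wild type and 0 higher, namely the chaperone genes Atox1 (-1.78), Cox17 (-1.42) and Ccs (-1.05). Of all compared 7.99% were lower without TNF, and of the 119 named genes within 10% of the Mt2 length 36.1% were. That window, 501 to 611 bases, holds Atox1 (501 bases) but not Cox17 (436 bases) or Ccs (1057 bases), so its share is no background for those 2. With the trend removed 2 were lower, Atox1 at -1.27 and the copper homeostasis gene Commd1 at -1.01 (-0.84 before). The Commd1 value rests on a recovered length of 4908 bases. That length may be a multiple of the true one, so whether Commd1 passes is not certain. With TNF 0 were higher or lower. Of 10 compared iron and manganese genes, 1 was higher with TNF in wild type and 0 in Mll1-/- cells (0.521% and 0.688% of all compared): the iron importer gene Slc11a2, at 36.2 and 26.0 RPKM in the Mll1-/- libraries with and without TNF and at 32.5 and 15.5 RPKM in wild type with and without TNF. The iron exporter gene Slc40a1 was the 1 iron gene past the rule against wild type, higher in both treatments (6.71% of all compared were higher with TNF and 7.11% without), with 2.19 and 2.40 RPKM in the Mll1-/- libraries with and without TNF and 0.148 and 0.0854 RPKM in wild type.

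None of the 6 genes beside the metallothionein cluster passed the size rule in any of the 5 comparisons. With 0.0556% to 7.99% of all compared past the rule per direction and comparison, nothing is read from this count. The 3 nearest compared genes on one side, Nudt21, Ogfod1 and Bbs2, and the 3 on the other, Nup93, Herpud1 and Cpne2, had log2 genotype ratios between -0.44 and 0.07 with TNF and between -0.79 and 0.07 without. Their TNF ratios lay between -0.15 and 0.32 in Mll1-/- cells and between -0.17 and 0.09 in wild type. Cpne2 (-0.79) and Herpud1 (-0.55), a gene which belongs to the endoplasmic reticulum stress response, had the lowest ratios against wild type without TNF. Both lie on the same side of the cluster, and the ratio of Mt1 (-0.72) was between theirs. With TNF in wild type, Cpne2 (-0.17), Bbs2 (-0.15) and Herpud1 (-0.14) were near Mt1 (-0.20), and Mt2 was at -0.39.

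The profile of Mt1 over the 4 libraries was most like those of short transcripts. By the Euclidean distance between mean-centred log2(RPKM + 0.5) values, among 9575 other named genes with at least 3 RPKM in the highest library, the nearest were the histone genes H4c18 (distance 0.248), H2bc3 (0.257) and H2bc14 (0.284) and the small nucleolar RNA genes Rnu3b1 and Rnu3b2 (0.284 each). Their recovered lengths were between 215 and 469 bases, and Rnu3b1 and Rnu3b2 hold the same values, so their reads are shared. The profile of Mt2 was most like those of the pore-forming gasdermin gene Gsdmd (0.548), the lipid transporter gene Mfsd2a (0.595), the TNF-stimulated gene Tnfaip6 (0.614), the pattern receptor gene Tlr2 (0.656) and the steroid dehydrogenase gene Akr1c18 (0.709). Their lengths were between 1192 and 2874 bases, and each was lower in both wild-type libraries than in both Mll1-/- libraries. Akr1c18 stood at 43.9 and 31.4 RPKM in the Mll1-/- libraries with and without TNF, against 4.20 and 4.15 RPKM in wild type with and without TNF. Mt2 ranked 9411 of the 9575 by likeness to Mt1 (distance 3.06). With 4 libraries such a distance describes these libraries only.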

How the data were processed

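RNA from 4 libraries of mouse embryonic fibroblasts was analysed, 1 per group. The authors deposited RPKM values for 27344 transcript entries, per the file headers and name. The submitters' processing notes name TopHat and DESeq with no version or role. The build, annotation and read counter were not given in the sources used here, and strand is not mentioned, so overlapping antisense genes cannot be separated.

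Library totals and transcript lengths were recovered as the numbers that turn RPKM into whole reads, which was reached for 27341 entries (99.99%) within 0.001 reads, with a slightly wider margin for large counts. For 1374 entries the length was multiplied by a whole number to meet the GENCODE length. The sum of recovered reads over entries exceeds the library total. Entries can share reads, and a multiplied length also multiplies the recovered reads of its entry. Their parts in the excess were not separated. The steps were tested on simulated data. Recovered lengths lay within 10% of the GENCODE M21 length for 79.1% of 20658 entries. Entries were named by accession from a RefSeq table made on GRCm38.p6 (20849) or GENCODE metadata (102), and 6393 had no symbol. The entry with the highest mean RPKM stood for each symbol.

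Ratios are of log2(RPKM + 0.5) over genes that reached 1 RPKM in some library. Read ratios carry 95% Clopper-Pearson intervals, levels Poisson intervals, and differences in response, like ratios of the Mt2 to Mt1 ratio, normal intervals of log2 read ratios. No test between conditions was run, since 1 library per group gives no spread between replicates. The members and the 8 gene lists were chosen with earlier results of these data known. Named genes were all 7 members, up to 4 at the ends of each list and any past the size rule, the 5 most similar profiles, and the 3 highest and 3 lowest of like length. Slc39a8, Slc39a4, Mt3, Hmox1, Nr3c1 and a few other list genes were named after their values were seen. Python 3.11.15, pandas 2.3.3, numpy 2.4.6 and scipy 1.17.1 were used. Alternatives covered pseudocount, filter, scaling, length trend and choice of entry.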

Additional observations from a re-analysis of the deposited data

Results flagged for a closer look

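Mt1 is listed because its TNF ratios lay on opposite sides of 1, with counting intervals that exclude 1 in both genotypes: 2.40 in Mll1-/- cells and 0.872 in wild type. The wild-type log2 value, -0.20, lay inside the middle 95% of all genes (-0.37 to 0.45), and counting intervals hold no spread between cultures. The difference in response was 1.45 on the log2 scale, and with 1 library per group it was not tested. Named genes within 10% of its length had a median difference of 0.50, and the Mll1-/- control library, in which Mt1 was lowest, was also the library in which short transcripts were lowest as a class (median genotype log2 ratio -0.53 without TNF). The part of transcript length in the value was not tested beyond the corrections given below.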

How the results depend on the processing

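No paired analysis was possible because each group is 1 library, and for the same reason no replicate could be left out. The number of the 7 genes past the size rule was the same under all 9 alternatives of pseudocount, filter, scaling, length trend and entry choice in all 5 comparisons. It changed under 1 setting chosen after seeing the data, the length trend of named genes removed: 0 rather than 2 were then higher with TNF in Mll1-/- cells, and 1 rather than 2 (Mt2) was higher in the difference in response. The cause was not tested. The difference in response of Mt2 stayed between 1.30 and 1.89. That of Mt1, 1.45, was 1.26 once the scaling left out the 20 genes of highest RPKM, 1.21 with the length trend removed, and 1.21 and 1.18 with the median of entries within 10% and 25% of its length subtracted. Settings chosen after seeing the data gave 1.13 against entries of like length with a mean of at least 10 RPKM, 0.98 with the trend of named genes removed and 0.95 against named genes of like length. Of 330 other gene values under these settings, 274 moved by less than counting error and 56 by more, and 0 values past the size rule changed sign. That scaling moves the median over all genes by -0.15 for TNF in Mll1-/- cells, by 0.103 and 0.279 for Mll1-/- against wild type with and without TNF, and by -0.174 for the difference in response. Depth limits Mt2 in wild type, which rests on 32 and 44 reads.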
